A study of Mesocricetus auratus with 8 samples.

Results

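Myosin heavy chain (MyHC) genes were examined in primary satellite cells (SCs, the stem cells of skeletal muscle) of the Syrian hamster before and after cold exposure. The members were chosen by gene symbol from a list of 9 genes, namely Myh3, Myh8, Myh7, Myh7b, Myh2, Myh1, Myh4, Myh9 and Myh10. Of these, 7 had a row among the 17590 genes with values in the deposited table. Myh7 and Myh8 had no row under those symbols, so they were not analysed here under those names. RNA was collected from SCs of sexually mature wild-type males (strain Slc:Syrian) kept at 37°C for 48 h in growth medium (GM) and then for 24 h in GM with HEPES, a pH buffer (control, n = 4 libraries). The cold group was treated in the same way and then held at 4°C for a further 24 h (cold, n = 4 libraries). The cold libraries were therefore collected 24 h later than the controls, and no library kept at 37°C for that extra day was analysed here, so temperature and time in culture cannot be told apart. The treatment labels count 3, 4, 5 and 6 culture days for the controls in order of replicate number, although every control title reads day 3. The SCs were enriched by preplating, and the study describes the 4 libraries of a group as biological replicates without saying whether each came from 1 animal or several, or what its replicate number marks.

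Myosin heavy chains are the motor subunits of myosin II, which bind actin through the head and assemble into filaments through a long coiled-coil tail. Sarcomeric heavy chains build the thick filaments of muscle, and each fiber type and developmental stage has its own set, with Myh3 and Myh8 in embryonic and newborn muscle, Myh7 and Myh7b on the slow side, and Myh2, Myh1 and Myh4 in adult fast fibers. The non-muscle chains Myh9 and Myh10 form the smaller filaments that drive cell shape, migration and cytokinesis in nearly every cell. Myoblasts rely on the non-muscle chains, and sarcomeric chains are switched on as they differentiate and fuse.

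Libraries held between 16530747 and 18533801 expected read counts. They differed most by replicate number, with replicates 1 and 2 apart from the rest along a first principal component holding 54.5% of the variance and cold apart from control along the second, holding 17.9%. Libraries of the same number deviated together from their group means, and the replicate number was therefore used as a block in a fit set beside the fit without it. All 7 satellite cell and myoblast markers had counts, with a summed level of 1770 to 2169 TPM (a share of transcripts that allows for their length) in control and 1690 to 1992 TPM in cold libraries. Fibroblast markers summed to 998 to 1509 TPM in control against 984 to 1468 TPM in cold libraries, and 0 of 6 were called in either fit. Endothelial markers reached at most 3.87 TPM in sum and leukocyte markers 55.7 TPM, and none of these was called in either fit described below. The leukocyte marker genes Ptprc and Adgre1 had at most 3 counts in any library. Cd68 and Csf1r of the same list were present in every library, at 23.3 to 52.0 TPM and 2.31 to 4.55 TPM.

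Cold-exposed SCs had less mRNA of embryonic (Myh3) and fast type IIx (Myh1) myosin when libraries were paired by number, and neither call was made by the same test without pairing. The non-muscle chains Myh9 and Myh10 were not called in either fit. Of the 7 members with a row, 5 had enough counts to be tested (Myh3, Myh1, Myh4, Myh9 and Myh10). In edgeR's quasi-likelihood test without a block, 0 of the 5 were called lower at an adjusted p under 0.05 (Benjamini-Hochberg over 12506 genes), where 0.0720% of all genes tested were called lower, and 0 were called higher, where 0% were. At an unadjusted p under 0.05 the same test gave 2 of the 5 members, Myh3 on the lower and Myh9 on the higher side, and 838 of all genes (6.70%). DESeq2 called 1 member, Myh3, lower, where it called 1.10% of all genes lower. With the replicate block, 2 of the 5 (Myh3 and Myh1) were called lower, where 4.07% of all genes were, and 0 were called higher, where 1.26% were. Only Myh3 also passed a log2 fold change of 1 in size in that fit, as 0.808% of all genes did on the lower side. The median log2 fold change over all genes tested was 0.0071 without and 0.0075 with the block.

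**Figure D1:**
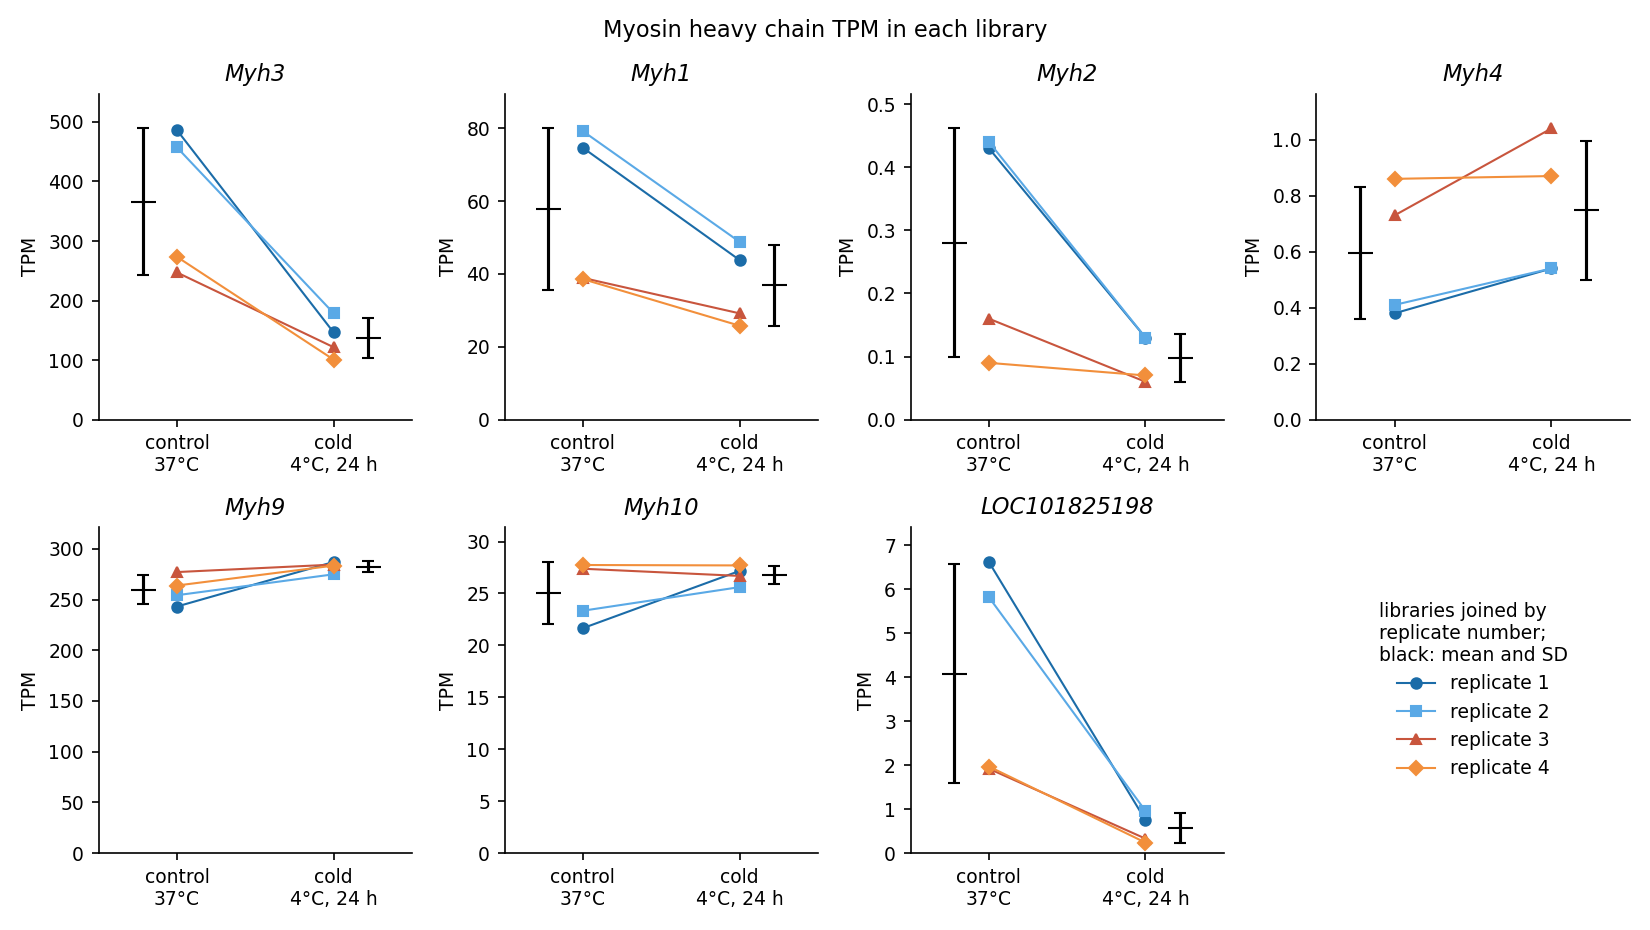
TPM of 6 myosin heavy chain genes, and of an unnamed entry of the fast myosin cluster (LOC101825198), in each of the 8 libraries (y axes start at 0 and differ between panels). Colored lines join control and cold libraries of the same replicate number, and black bars give the group mean and SD (n = 4 each). Myh3, Myh1, Myh2 and LOC101825198 lines all run downward, Myh4 and Myh9 lines upward, and replicates 1 and 2 (blue) start apart from replicates 3 and 4 (red and orange).

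The embryonic heavy chain Myh3 (NCBI Gene 101825642) was the sarcomeric member with the highest level. Its control values were 486, 457, 247 and 273 TPM in replicates 1 to 4, and its cold values were 146, 179, 122 and 101 TPM. Each cold library was below each control library, and the control libraries themselves fell into a higher pair (replicates 1 and 2) and a lower pair (replicates 3 and 4). The mean level went from 366 ± 123 TPM to 137 ± 33.6 TPM (SD, n = 4 per group; exact two-sided permutation test, p = 0.0286, the smallest p that 4 libraries against 4 allow). Groups without overlap and lower in the cold were found for 2.41% of all genes tested.

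Within pairs of the same number, cold Myh3 was 30.1%, 39.1%, 49.2% and 36.9% of control in replicates 1 to 4. On the log2 scale cold differed from control by −1.45 (standard error, SE, 0.27; adjusted p = 0.135 with edgeR) without the block and by −1.41 (SE 0.07; adjusted p = 1.50e-10 with edgeR) with it. Replicates 1 and 2 alone gave −1.60 and replicates 3 and 4 alone −1.21, and the difference between these values was not tested. Without control replicate 3 the unblocked test called Myh3, at −1.62 (adjusted p = 0.0499 with edgeR), and over the 17 alternatives that drew on all 4 replicate numbers and used neither the block nor DESeq2, the adjusted p lay between 0.0499 and 0.407. These are bulk libraries, in which fewer cells of a type and less RNA per cell cannot be told apart.

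Markers of differentiating muscle cells moved with Myh3. Their summed level was 1854 to 3476 TPM in control against 994 to 1818 TPM in cold libraries, and it was lower in 4 of 4 pairs. With the replicate block 6 of 6 were called lower, where 4.07% of all genes were, and without it 0 were, where 0.0720% were. Acta1, the skeletal alpha-actin gene, had the largest change of the 6, −1.85 (edgeR with the block, adjusted p = 9.63e-11). Mymk, the myomaker gene needed for myoblast fusion, had −1.54 (edgeR with the block, adjusted p = 6.96e-12), and Myog, the myogenin gene, one of −0.71 (edgeR with the block, adjusted p = 2.96e-09). Of the satellite cell and myoblast markers, 3 of 7 were lower with the block, namely Myod1, Cdh15 and Itga7, and 0 without it. Pax7 and Myf5, factors of satellite cells and myoblasts in the same list, were not called in either fit and had log2 differences of 0.08 each with the block, with higher TPM after cold in 3 of 4 pairs. Des and Vcam1 of that list were not called in either fit, with −0.09 and −0.02 with the block and lower TPM in 2 of 4 pairs each. The part of these shifts in the Myh3 values was not tested.

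Among the adult fast chains, Myh1 and Myh2 had lower TPM after cold in each pair and Myh4 had higher TPM, as 12.8% of all genes tested did, though its pair 4 was level in expected counts (61 and 61). Myh1 (101822732), the type IIx heavy chain, was at 74.6, 79.2, 38.9 and 38.6 TPM in control replicates 1 to 4 and at 43.8, 48.8, 29.2 and 25.8 TPM in the cold. The groups overlapped, because cold replicates 1 and 2 lay above control replicates 3 and 4, but within each pair the cold library was lower, at 58.7%, 61.6%, 75.0% and 66.9% of control. A fall in 4 of 4 pairs was seen in TPM for 10.5% of all genes tested and for 2 of the 5 members, Myh1 and Myh3. The mean was 57.8 ± 22.1 TPM in control against 36.9 ± 11.1 TPM after cold (SD, n = 4 per group; exact two-sided permutation test, p = 0.200). For Myh1 the log2 difference came to −0.68 (SE 0.31; adjusted p = 0.776 with edgeR) without the block and to −0.64 (SE 0.05; adjusted p = 1.20e-07 with edgeR) with it.

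Myh2 (101822998), the type IIa heavy chain, stood near the limit of detection. Control replicates 1 to 4 had 31.1, 32.9, 11.1 and 6.76 expected counts and cold replicates 1 to 4 had 10.0, 9.03, 4.01 and 5.01, that is 0.09 to 0.44 TPM in control against 0.06 to 0.13 TPM in cold libraries. It was lower in 4 of 4 pairs, its groups overlapped (exact two-sided permutation test, p = 0.114), and it did not pass the filter on low counts. Without that filter edgeR gave a log2 difference of −1.58 (SE 0.55; adjusted p = 0.670). Myh2 passed the usual filter and was called lower in replicates 1 and 2 alone (−1.80, adjusted p = 0.00153 with edgeR) and with the block when replicate 4 was left out (−1.75, adjusted p = 0.00119 with edgeR). It also passed that filter without the block when control replicate 4 or any cold replicate was left out, and was called in none of these 5 fits (adjusted p = 0.270 to 0.942 with edgeR).

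Myh4 (101823448), the type IIb heavy chain, was also rare, and its values lay on the other side of 0. It had 0.38, 0.41, 0.73 and 0.86 TPM in control replicates 1 to 4 (27 to 61 counts) and 0.54, 0.54, 1.04 and 0.87 TPM in cold replicates 1 to 4 (38 to 73 counts). Replicates 3 and 4 held the highest values in both groups, opposite to Myh3 and Myh1. Both fits put Myh4 at 0.32 on the log2 scale (SE 0.31 and adjusted p = 0.999 without the block, SE 0.16 and adjusted p = 0.296 with it, edgeR), and the groups overlapped (exact two-sided permutation test, p = 0.457).

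The slow side was represented by Myh7b (101829839) alone, the slow tonic heavy chain of specialised and embryonic fibers. It had 0 counts in 7 libraries and 1 count in cold replicate 3. A count of 0 allows up to 3 counts per library, or 0.162 to 0.181 CPM (counts scaled to library size) at these depths, and this limit covers counting error only. No direction was drawn for it.

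Reads of the fast myosin genes were in part divided between them. In the RefSeq order of genes, used here for neighbours only, Myh3, Myh2, Myh1, Myh4, an entry without a gene name (LOC101825198, protein coding) and Myh13 follow each other. Such a cluster is known from other mammals. Whether the unnamed entry is Myh8, which had no row under its symbol, was not tested. Expected counts of Myh3 and Myh2 had decimals in 8 of 8 libraries, those of Myh1 in 7, those of LOC101825198 in 2 and those of Myh4 in 1, while Myh9, Myh10 and Myh7b had whole counts throughout. Summed over the 5 entries Myh3, Myh2, Myh1, Myh4 and LOC101825198, the counts came within 0.01 of a whole number in 8 of 8 libraries, so the divided reads were shared among these entries. How many reads were divided is not given in the table, and the level of each of these genes is uncertain to that extent. With counts rounded down, the log2 fold changes of Myh3 (−1.45) and Myh1 (−0.68) were as before to 2 decimals. Rounding removes less than 1 count per library, so it does not test how the shared reads were divided.

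LOC101825198 lies outside the member list and was added after its values were seen. It was at 6.62, 5.82, 1.92 and 1.97 TPM in control replicates 1 to 4 and at 0.75, 0.96, 0.33 and 0.24 TPM in the cold. The groups did not overlap, as for Myh3, and the same higher and lower pairs of control libraries appeared. edgeR placed it at −2.88 (SE 0.57; adjusted p = 0.143) without and at −2.87 (SE 0.12; adjusted p = 1.60e-11) with the block, on the log2 scale. DESeq2 without a block called it (adjusted p = 0.00239), and limma on log2(TPM + 1), a scale that understates the change of low genes, gave −1.58. The cold mean was 40.5 counts against 289 in control libraries.

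**Figure D2:**
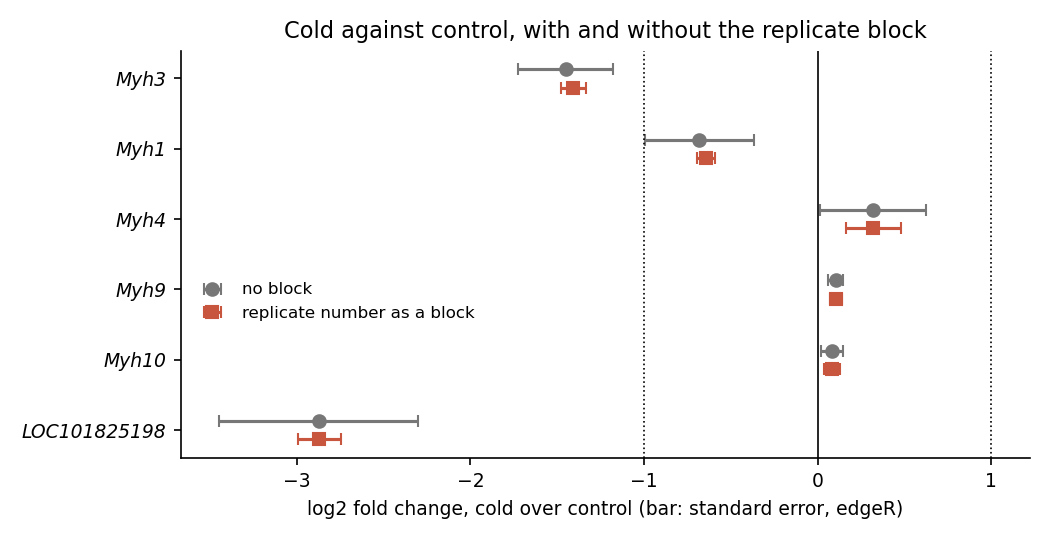
Log2 fold change of cold over control (x axis) for the 5 members tested and LOC101825198, with standard errors from edgeR without (grey circles) and with (red squares) the replicate number as a block. The point estimates of the fits are close (−1.45 and −1.41 for Myh3) while the standard errors shrink with the block (0.27 and 0.07), and dotted lines mark a log2 fold change of 1 in size.

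The balance between the sarcomeric chains also differed between the groups. Myh3 made up 86.3% ± 0.946 of the summed TPM of the 5 sarcomeric members with a row in control libraries and 78.5% ± 1.41 in cold libraries (SD, n = 4 per group). The control shares were 86.6%, 85.1%, 86.1% and 87.4% and the cold shares 76.7%, 78.3%, 80.1% and 79.0%, with no overlap. Myh3 made up most of the sum it was divided by, so its share could vary little with its level. The share of Myh1 was 13.5% ± 0.994 in control and 20.9% ± 1.61 in cold libraries (SD, n = 4 per group), and that of Myh4 was at most 0.685% in any library. Expressed as a ratio of TPM, Myh3 was 6.43 ± 0.541 times Myh1 in control and 3.77 ± 0.353 times Myh1 in cold libraries (SD, n = 4 per group). These shares leave out LOC101825198, and Myh7 and Myh8 had no row under those symbols.

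**Figure D3:**
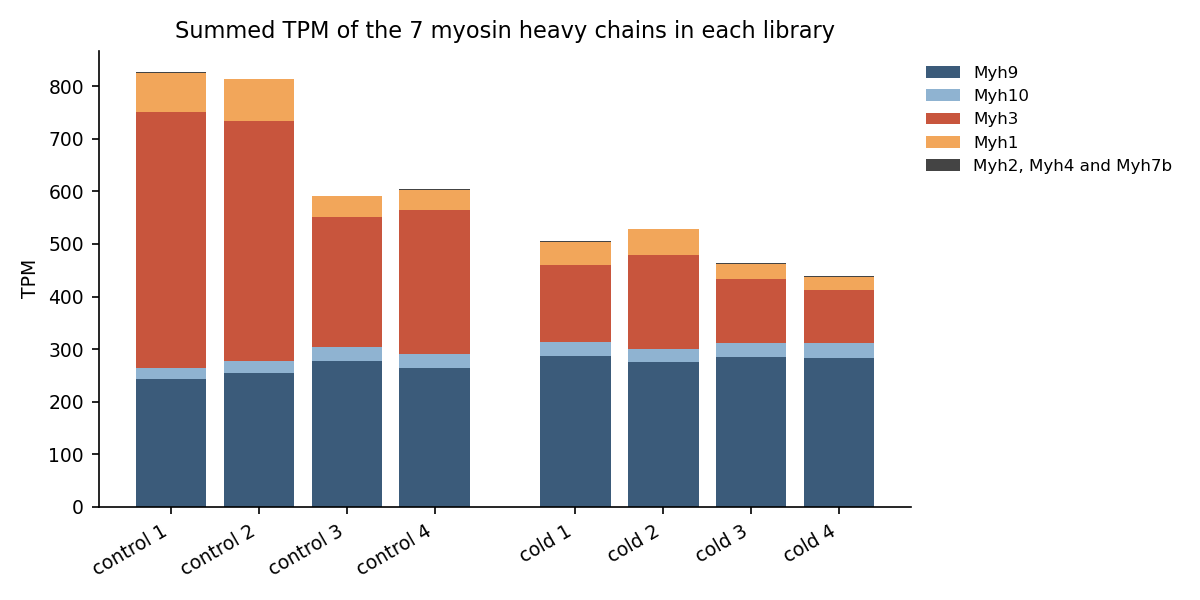
Stacked TPM of the 7 members in each library (bars start at 0, controls on the left, cold on the right). The non-muscle part at the base (Myh9 and Myh10, blue) stays between 265 and 314 TPM, while the sarcomeric part above it (Myh3 red, Myh1 orange) runs from 287 to 562 TPM in controls and from 128 to 228 TPM in the cold.

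Neither non-muscle chain was called by edgeR over all 8 libraries, with or without the block. Myh9 (101844355), the heavy chain of non-muscle myosin IIA, was at 243, 254, 277 and 264 TPM in control replicates 1 to 4 and at 287, 275, 284 and 283 TPM in the cold. It was higher in the cold in 4 of 4 pairs, against the same 12.8% of all genes tested, and its groups touched, since control replicate 3 lay above cold replicate 2. The mean was 260 ± 14.4 TPM in control against 282 ± 5.28 TPM after cold (SD, n = 4 per group; exact two-sided permutation test, p = 0.0571). The log2 fold change of Myh9 was 0.10 in both fits and did not pass the threshold in either (edgeR adjusted p = 0.684 without and 0.0931 with the block).

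Myh10 (101842767), the heavy chain of non-muscle myosin IIB, was at 21.7, 23.3, 27.4 and 27.7 TPM in control replicates 1 to 4 and at 27.2, 25.6, 26.7 and 27.7 TPM in the cold. It was higher in pairs 1 and 2 and lower, at 97.5% and 99.9% of control, in pairs 3 and 4. The mean was 25.0 ± 3.00 TPM in control against 26.8 ± 0.890 TPM after cold (SD, n = 4 per group; exact two-sided permutation test, p = 0.400), and edgeR gave 0.08 on the log2 scale (SE 0.06; adjusted p = 0.983 without and 0.363 with the block). Replicates 1 and 2 alone gave 0.16 (edgeR adjusted p = 0.0483, where 4.73% of all genes were called higher) and replicates 3 and 4 alone −0.0036. With libraries or pairs left out it ran from 0.020, with the block and without replicate 1, to 0.12. The ratio of Myh9 to Myh10 in TPM was 10.4 ± 0.772 in control and 10.5 ± 0.221 in cold libraries (SD, n = 4 per group).

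The order of levels per transcript length thus differed between the groups. In control libraries Myh3 came first and Myh9 second by mean TPM, but they were not separated, since Myh9 was above Myh3 in replicate 3. In cold libraries Myh9 was above Myh3 in 4 of 4 libraries, and the ratio of Myh3 to Myh9 in TPM was 1.43 ± 0.549 in control and 0.486 ± 0.126 in cold libraries (SD, n = 4 per group). Myh1 came next in both groups, above Myh10 in all 4 controls and in 3 of 4 cold libraries. Myh4 and Myh2 followed at no more than 1.04 TPM, with Myh4 above Myh2 in 2 of 4 control and 4 of 4 cold libraries. By mean TPM among all 17590 genes, Myh3 ranked 385 in control and 1112 in cold libraries, and Myh9 ranked 560 and 516.

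Of the other heavy chain genes, Myh11, the smooth muscle chain, was at 2.37 ± 0.617 TPM in control against 2.41 ± 0.501 TPM after cold (SD, n = 4 per group), with a log2 fold change of 0.02 (edgeR adjusted p = 0.999). Myh14, the chain of non-muscle myosin IIC, had at most 4 counts, Myh13, the extraocular muscle chain, at most 2, and Myh15 at most 1. Myh6 and Myh16 were not analysed here.

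The partners of the sarcomeric heavy chains were then counted in the same fits, from lists chosen by function with earlier results of these data known, so their counts are a description. Of all genes tested, these fits called 4.07% lower and 1.26% higher with the block, and 0.0720% and 0% without it. Of 7 sarcomeric myosin light chains, which bind the neck of the heavy chain, 5 were tested. All 5 were lower with the replicate block and 1 without, and their median log2 fold change was −1.97 without the block, against 0.0071 for all genes tested. The largest change was that of the embryonic and atrial light chain Myl4, −2.57 (adjusted p = 0.0301 with edgeR without the block), followed with the block by the fast light chain Myl1 (−2.02, adjusted p = 6.25e-11 with edgeR) and the slow light chain Myl3 (−1.98, adjusted p = 5.68e-05 with edgeR). The most abundant was the fast regulatory light chain Mylpf, 1474 ± 586 TPM in control against 665 ± 250 TPM after cold (SD, n = 4 per group; edgeR adjusted p = 5.11e-11 with the block). Of the non-muscle and smooth muscle light chains, Myl6 and Myl9 were tested and neither was called, with Myl6 at 1817 ± 124 TPM in control against 1846 ± 133 TPM after cold (SD, n = 4 per group).

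Thick filament and M-band partners had 8 of 11 genes tested and a median log2 fold change of −0.97 without the block. All 8 were lower with the block and 1, the M-band protein gene Myom3, without it (log2 fold change −2.08, adjusted p = 0.0195 with edgeR). Mybph, which encodes a myosin-binding protein H, had the largest change, −2.30 with the block (edgeR adjusted p = 7.16e-12), from 40.9 ± 27.2 to 8.38 ± 4.99 TPM (SD, n = 4 per group). Without the block, Myl4 and Myom3 were the 2 genes called over all lists, where 0.0720% of all genes tested were called lower. Of the lists, 0 genes were called there when control replicate 2 or 4 or any cold replicate was left out. Those fits called at most 0.0159% of all genes lower. Mybpc1, a slow myosin-binding protein C gene, was at means of 0.543 and 0.223 TPM and lower in 3 of 4 pairs (log2 fold change −1.30 with the block, edgeR adjusted p = 0.0137). The smallest change was that of Ttn, the titin gene, −0.18 with the block (edgeR adjusted p = 0.0159), and its TPM was lower in 2 of 4 pairs. The call of Ttn was lost in 1 of the 4 fits with a replicate number left out, and Mybpc1 was called in 2 of them and did not pass the filter on low counts in the other 2.

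Among 5 genes of myosin folding, the muscle chaperone gene Unc45b and the methyltransferase gene Smyd1 were lower with the block, with log2 fold changes of −0.998 and −1.49 (adjusted p = 1.80e-07 and 6.03e-09 with edgeR), and none was called without it. The general chaperone genes of the list were not called, with Unc45a at 0.06, Hsp90aa1 at 0.05 and Hsp90ab1, the most abundant of the list at 2654 TPM in control libraries, at 0.05 in log2 fold change with the block. Of 11 genes tested that control non-muscle myosin II, 1 was higher and 0 lower with the block, and 0 were called without it. That gene was Rock2, a kinase that promotes myosin light chain phosphorylation, at 0.15 on the log2 scale (adjusted p = 0.0497 with edgeR). The call of Rock2 was made in 1 of the 4 fits with the block that left out a replicate number, the one without replicate 4, and its adjusted p in edgeR ran from 0.0152 to 0.359 over them. Rhoa, the most abundant of the list, was at 514 ± 20.3 TPM in control against 522 ± 5.98 TPM after cold (SD, n = 4 per group).

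Transcription factors that act on sarcomeric myosin genes were lower in 6 of 13 genes tested with the block and higher in 0, with 0 calls without it and a median log2 fold change of −0.14. Mef2c, a MADS-box activator of muscle genes, had the largest change, −1.43 with the block (edgeR adjusted p = 3.43e-09), followed by Myog and by Sox6, a repressor of slow fiber genes (−0.50, edgeR adjusted p = 0.00103 with the block). Mef2d had −0.18 (edgeR adjusted p = 0.0399 with the block). With a replicate number left out, the call of Mef2d was lost in 3 of the 4 blocked fits, that of Myod1 in 2 and that of Mef2a in 1.

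**Figure D4:**
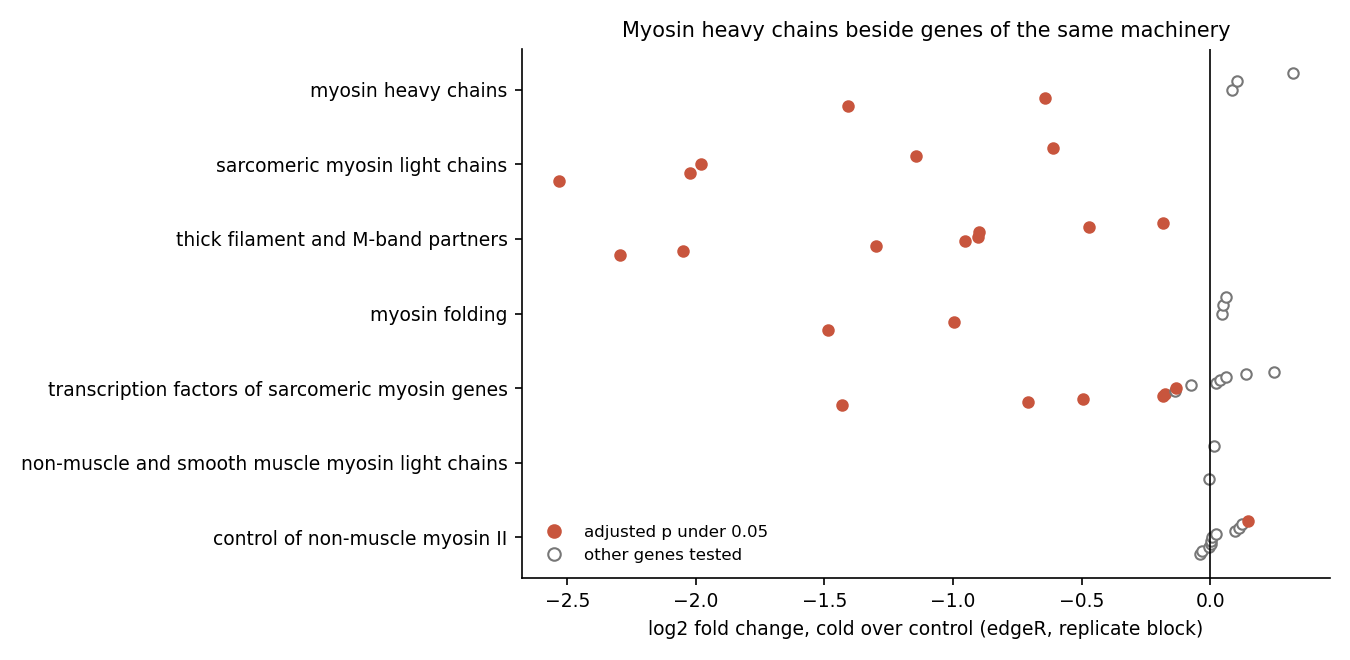
Log2 fold change of cold over control (x axis, edgeR with the replicate block) for each tested myosin heavy chain and each tested gene of 6 lists (rows, 1 point per gene). Filled red points have an adjusted p under 0.05 over all genes tested. All 5 sarcomeric light chains and all 8 thick filament partners lie left of 0, whereas genes of non-muscle myosin lie close to 0.

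Genes with the most similar pattern were sought for each tested member by the root mean square difference between centred log2(TPM + 0.1) profiles over the 8 libraries, among 10486 or 10487 named genes. This is a description, and the libraries share the split between replicates 1 and 2 and replicates 3 and 4. Nearest to Myh3, whose own profile had a spread of 0.79, were Gprc5c (0.087), Prr32 (0.097) and Stac2 (0.11). Nearest to Myh1 (spread 0.54) were Actc1, the cardiac alpha-actin gene expressed in developing skeletal muscle (0.079), Pdlim3 (0.085) and Tnnt3, the fast troponin T gene (0.089). Actc1 went from a mean of 5145 TPM in control to 3355 TPM in cold libraries. Among the 3 genes nearest to Myh4 (spread 0.43) was Colec12 (0.099). The profiles of Myh9 and Myh10 were flatter, with spreads of 0.080 and 0.12, and nearest to them were Bub3, Arpc2 and Necap2 (0.020 to 0.024) and Tjp1, Bahcc1 and Plcg1 (0.025 to 0.029).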

How the data were processed

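RNA-seq libraries were paired-end, sequenced on a DNBSEQ platform by BGI. The authors deposited 1 table for the series. Its expected counts, made by the authors, are not normalized and were whole numbers for 96.4% to 96.6% of genes per library. Its TPM values, also from the authors, allow for transcript length and library size. Its deposited normalized counts, a signal, were found to be the expected counts, rounded up, multiplied by a library factor whose source is not stated. The submitters' processing notes name HISAT and HISAT2, without versions. The genome build and counting program are not given in the sources used here. All 17590 identifiers matched RefSeq (BCM_Maur assembly), used for names and neighbours only. No file used here holds the sequences of these genes.

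Members and lists were chosen with earlier results of these data known. All members are named. Of each list, up to 4 called genes by size of fold and the most abundant gene were eligible for naming, as were the 3 genes nearest in profile to each tested member. The others named here were Myl9, Ttn, Unc45a, Hsp90aa1, Mef2a, Pax7, Myf5, Vcam1, Myh13, Myh14, Myh15, Ptprc, Adgre1 and Csf1r, chosen after their values were seen. Some genes that this rule selects are not reported here. Lists covered other heavy chains, sarcomeric and non-muscle light chains, thick filament partners, myosin folding, control of non-muscle myosin II, transcription factors, and markers of satellite cells, differentiating cells, fibroblasts, smooth muscle, endothelium, leukocytes and Schwann cells.

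After rounding, counts of 12506 genes that passed filterByExpr entered edgeR 4.0.16 (R 4.3.3) with TMM factors and its quasi-likelihood test, 4 cold libraries against 4 controls, called at a Benjamini-Hochberg adjusted p under 0.05. Standard errors are the absolute log2 fold change over the square root of F. TPM was compared by an exact two-sided permutation test over 70 arrangements. Replicate numbers 1 to 4 are in the titles. Deviations from group means correlated at 0.61 to 0.66 across genes, which are not independent replicates, for a control and a cold library that share a number, at 0.43 to 0.59 between replicates 1 and 2 or 3 and 4, and at −0.61 to −0.55 otherwise, so the numbers were taken to pair the libraries. p-values measure the spread between these libraries. Alternatives were DESeq2 1.42.0, limma 3.58.1 on log2 TPM, other normalizations, filters and rounding, the replicate block, replicates 1 and 2 or 3 and 4 alone, and leaving out libraries. Depth was 16530747 to 18533801 counts per library. Figures were drawn with matplotlib 3.10.9.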

Additional observations from a re-analysis of the deposited data

Results flagged for a closer look

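Dixon's criterion was applied to each group of 4 libraries for the members with over 3 counts in some library and for LOC101825198. It marked 0 of the 14 groups as holding a highest or lowest value far from the others, where chance alone would mark 0.7.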

How the results depend on the processing

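The number of members called lower was 0 without the block, 2 with the replicate block, 3 in replicates 1 and 2 alone (Myh2 passed the filter there), 2 in replicates 3 and 4 alone and 1 with DESeq2, fits that called 4.07%, 6.85%, 0.381% and 1.10% of all genes lower, and lay between 0 and 3 when libraries or pairs were left out. The number called higher was 1 in replicates 1 and 2 alone (Myh10, log2 fold change 0.16, edgeR adjusted p = 0.0483, where 4.73% of all genes were) and 0 when libraries or pairs were left out. Genes of the 7 lists called lower numbered 2 without the block, 21 with the replicate block, 20 in replicates 1 and 2 alone, 10 in replicates 3 and 4 alone and 12 with DESeq2. With the block and replicate 1, 2, 3 or 4 left out they numbered 17, 18, 19 and 21, where 2.82%, 2.71%, 3.78% and 4.88% of all genes were called lower. Without the block, list genes called lower numbered 1 without control replicate 1, 5 without control replicate 3 and 0 without any other single library. Of all genes, these fits called 0.0318%, 0.357% and at most 0.0159% lower. List genes called higher numbered 1 with the block and 3 in replicates 1 and 2 alone, where 1.26% and 4.73% of all genes were. With libraries or pairs left out they numbered 0 to 3. The log2 fold change of Myh10 was −0.0036 in replicates 3 and 4 alone. The cause of these differences was not tested. Over 25 alternatives each, Myh3 ran from −1.62 to −1.21 and Myh1 from −0.86 to −0.48, all negative, and Myh4 (0.12 to 0.52) and Myh9 (0.073 to 0.12) were all positive. The share of Myh3 ran from 85.9% to 86.7% in control and from 78.0% to 79.1% in cold libraries, and that of Myh1 from 13.1% to 13.9% and from 20.3% to 21.5%. With deposited normalized counts the groups of Myh9 did not overlap (exact two-sided permutation test, p = 0.0286, against 0.0571 in TPM). The share of all genes without overlap and higher in the cold was not computed, so this cannot be set against other genes. With any single cold library left out, the exact permutation test of Myh3 gave p = 0.0571, where 0.0286 is the smallest that 3 libraries against 4 allow. The groups of Myh3 still did not overlap there. Precision for Myh2, Myh4 and Myh7b is limited by their few counts.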

Other observations

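Smooth muscle markers were also expressed, with 1342 to 2224 TPM in sum in control against 1201 to 1514 TPM in cold libraries. Most of this was Acta2, the smooth muscle alpha-actin gene, which is also made by cultured myoblasts and fibroblasts, at 1526 ± 401 TPM in control against 1097 ± 145 TPM after cold (SD, n = 4 per group). With the replicate block, Acta2 was the only gene called among the 6 of that list, with a log2 fold change of −0.46 (edgeR adjusted p = 2.68e-05). Without the block Acta2 was not called (−0.50, edgeR adjusted p = 0.676). The smooth muscle heavy chain Myh11 was not called in either fit. The fibroblast marker with the highest level, Thy1, was at 568 ± 95.3 and 579 ± 76.1 TPM (SD, n = 4 per group), and 0 of the 6 fibroblast markers were called in either fit. Schwann cell markers summed to at most 2.77 TPM in any library, and the 1 of 3 that was tested was not called in either fit.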
